A study of Capra hircus with 4 samples.

Results

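One library of longissimus dorsi muscle from goats given ractopamine, the library numbered 1 of the treated group, was compared with the only control library of the study. Expected counts, the authors' estimate of sequenced fragments, were summed over all assembled sequences (unigenes) paired with the same goat gene, and each library was rescaled to its sum over these genes. Of 11208 goat genes named in the pairing table, 6841 had 50 or more counts in both libraries together and are described here. The other 4367 had fewer counts. All animals were Cashmere goats of 2 months. The treated goats received ractopamine by mouth at 1 mg/kg body weight each morning, in a course of 28 dosing days followed by 21 withdrawal days, and the control goats did not. Goats were taken during this course, 3 on each sampling day, and the sequenced days were dosing day 21 and withdrawal days 3 and 21. The labels number the treated libraries without naming a day, so which of these days treated library 1 stands for is not known here, nor is the number of goats behind each library. With 1 library a side there is no test of the treatment, and every interval below is an exact Clopper-Pearson 95% interval that covers counting error only.

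Ractopamine binds β-adrenergic receptors on muscle fibres. The receptor acts through a stimulatory G protein and adenylyl cyclase to raise cyclic AMP, which activates protein kinase A and turns on genes such as CREM and the NR4A family, while phosphodiesterases break cyclic AMP down again. Prolonged β-agonist feeding is known for muscle growth, less fat and a shift from slow oxidative towards fast glycolytic fibres.

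The control library held 8533046 expected counts and treated library 1 held 7962590. Counts paired with a named goat gene made up 71.3% of the control library (6086312) and 50.1% of treated library 1 (3991046), so that 3 counts equalled 0.493 CPM (counts per 1000000 paired-gene counts) in the control library and 0.752 CPM in treated library 1. The muscle label was checked against marker genes. The 10 skeletal muscle markers named in the table summed to 119188 CPM in the control library and 111586 CPM in treated library 1, with 1 of the 10 higher and 4 lower. Desmin (DES) was at a ratio of 1.02 (interval 1.01 to 1.03) and myoglobin (MB) at 1.38, and the lower markers were NEB, PYGM, MYH2 and the gene named ACTA1, which had only 130 and 6 counts. Red blood cell and T cell markers summed to 27 and 24 and to 2 and 5 counts in the control library and treated library 1. Myeloid markers summed to 25 and 63 counts, or 4.11 and 15.8 CPM, with none at 50 counts. With a minimum of 20 counts, 3 myeloid markers were described and all 3 were higher. Some adipocyte and nerve markers were higher in treated library 1. ADIPOQ, the adipocyte hormone adiponectin, had 75 counts in the control library and 403 in treated library 1 (ratio 8.19). The 4 adipocyte markers described (of 7 named) split 2 higher and 2 lower, and all 7 summed to 213 and 339 CPM. The Schwann cell gene PMP22 was at a ratio of 11.1, and all 3 nerve markers described (of 6 named) were higher, with 41.1 and 265 CPM over the named list, although SOX10 had 5 and 2 counts. Adipocyte PLIN1 had 6 and 5 counts. B and plasma cell markers summed to 26 and 224 counts, of which LOC102185492, a gene of uncertain name, gave 7 and 193 and IGJ the remaining 19 and 31. The part of such cells in the results below was not tested, and in bulk muscle fewer cells of a type cannot be told apart from less RNA per cell.

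The ratio of treated library 1 to the control library was 2 or more for 690 genes (10.1% of all genes described, called higher) and 0.5 or less for 1845 genes (27.0%, called lower). The median log2 ratio was -0.39, and single genes ranged from -6.15 to 7.0. The size of the excess of lower genes depended on the scaling. The 10 most abundant genes held 24% of the paired counts in the control library and 28.8% in treated library 1. With these kinds of genes left out of the scaling (the 10 highest over both libraries), 781 genes were higher and 1678 lower, and scaled to GAPDH 853 and 1578. With the median ratio set to 1, which evens the split nearly by construction, 1134 genes were higher and 1151 lower. TMM scaling, which left the median log2 ratio at -0.009, gave 1125 and 1161. The interval of the ratio lay above 1 for 1536 genes, below 1 for 3317 and included 1 for 1988. Near the limit of 50 counts, the 37 genes with exactly 50 counts had a median log2 ratio of -0.48 and the 42 genes with 49 counts, which were left out, had -0.79.

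**Figure D1:**
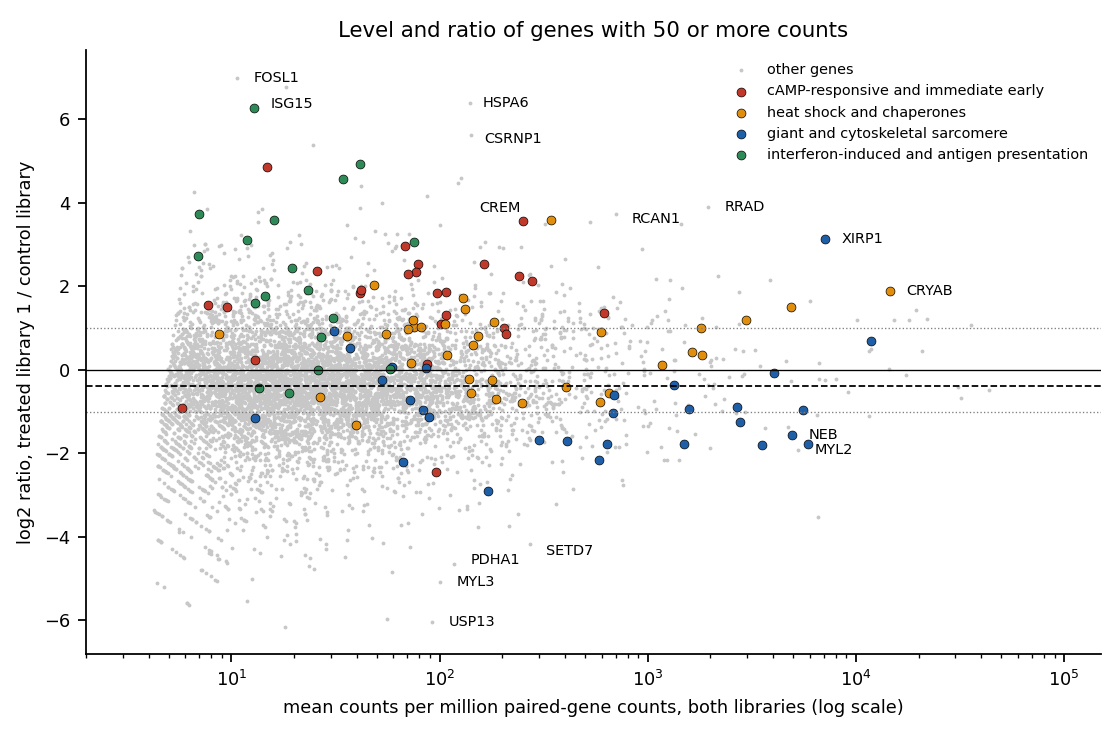
Each point is a gene with 50 or more counts. The x axis is the mean level in both libraries in CPM on a log scale, and the y axis is the log2 ratio of treated library 1 to the control library. Dotted lines mark 2-fold either way and the dashed line the median of all genes (-0.39). Most cAMP-responsive, interferon-induced and heat shock genes sit above the median, while most giant and cytoskeletal sarcomere genes sit below it, with XIRP1 as the highest of them.

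The 15 highest genes were a mixture of stress, immediate early and immune genes. HSPA6, a strictly stress-induced 70-kDa heat shock protein, had 20 counts in the control library and 1107 in treated library 1, which is 3.29 and 277 CPM and a ratio of 84.4 (interval 54.4 to 139). CSRNP1, a nuclear protein induced by AXIN1, had 34 and 1110 counts (ratio 49.8, 35.4 to 72.3). FOSL1, a subunit of the AP-1 transcription factor, had 1 and 84 counts, for which the ratio of 128 has an interval of 22.4 to 5119. RRAD, a small GTPase that restrains calcium channels, was the most abundant of the 15, with 1479 and 14592 counts (243 and 3656 CPM, ratio 15, 14.3 to 15.9). RCAN1, an inhibitor of calcineurin, had 600 and 5200 counts (ratio 13.2, 12.1 to 14.4). GADD45G, a stress sensor, had 61 and 967 counts, and BTG2, which restrains cell division, had 6 and 114. METRNL, a hormone made by muscle and fat, had 64 and 937. The calcium-binding protein gene S100A2 had 23 and 320 counts, and the gene named TPM4, whose matched protein is a tropomyosin alpha-1 chain, had 56 and 658. The interferon and immunoglobulin genes among the 15 are given further on. The lower bound of the interval was above 12 for each of the 15. In treated library 3, which was also compared with the same control library, HSPA6 was at 4.82 CPM, RRAD at 208 and RCAN1 at 36.7, against 277, 3656 and 1303 CPM in treated library 1. Other genes of the 15 were also above the control library there, with ISG15 and LOC102176353 at a ratio of 13.5, BTG2 at 10.9, LOC102185492 at 6.77 and TPM4 at 5.80.

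HSPA6 is close in sequence to the general inducible HSP70, whose reads are counted under the name HSPA1L in the pairing table, so a stretch of both is printed to show that the assembly keeps them apart. The lines give 90 bases of coding sequence from the deposited unigenes, read in the coding direction, and capitals mark the 20 positions at which they differ. Over 1188 aligned bases the unigenes were 82.7% identical.
HSP70 unigene c13534_g1: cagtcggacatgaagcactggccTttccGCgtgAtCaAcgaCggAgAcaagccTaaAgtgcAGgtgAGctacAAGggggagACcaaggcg
HSPA6 unigene c12130_g2: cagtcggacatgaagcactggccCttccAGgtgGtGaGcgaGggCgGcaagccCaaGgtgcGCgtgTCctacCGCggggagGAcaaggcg
The HSP70 unigene had 15372 counts in the control library and 28620 in treated library 1, a ratio of 2.84. The HSPA6 unigene had 14 and 374 counts, a ratio of 40.7 (24 to 75.2). A second HSPA6 unigene, which holds the end of the coding frame, had 3 and 704 counts.

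The 15 lowest genes were led by USP13, a deubiquitinase, which had 1104 counts in the control library and 11 in treated library 1. It was 65.8-fold lower, with the ratio between 0.008 and 0.027. NT5C1A, which makes adenosine from AMP, had 670 and 7 counts (62.8-fold lower). MYL3, the slow essential myosin light chain, had 1193 and 23 (34-fold lower). PDHA1, the E1 alpha subunit of pyruvate dehydrogenase, had 1380 and 36 counts (25.1-fold lower). SETD7, a lysine methyltransferase, was the most abundant of the 15 with 3122 and 113 counts (513 and 28.3 CPM, 18.1-fold lower, ratio 0.045 to 0.067). Of the 15, those with 0 counts in treated library 1 were PFKFB2, GCNT2, PRKAB2 and DRD1, with 106, 105, 97 and 95 counts in the control library. With 3 counts put in place of 0 they were 23.2-fold, 23.0-fold, 21.2-fold and 20.8-fold lower. The upper bounds of their ratios were 0.054, 0.055, 0.059 and 0.060. The others were ST3GAL2 (698 and 16 counts), PROB1 (835 and 29), WNK2 (293 and 7), ANO5 (217 and 2), MYH14 (142 and 2) and LOC102176973 (410 and 12). In treated library 3, USP13 was at 6.30 CPM, MYL3 at 14.1 and SETD7 at 69.3, against 2.76, 5.76 and 28.3 CPM in treated library 1.

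**Figure D2:**
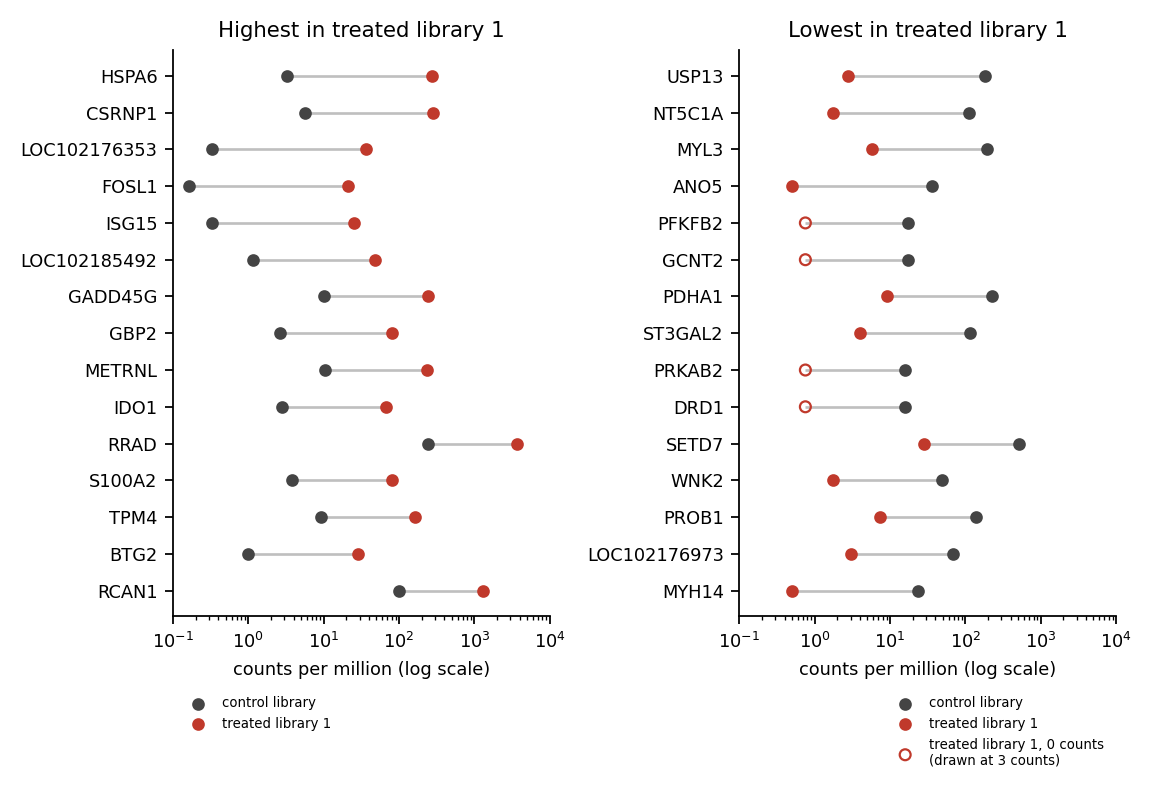
CPM (x axis, log scale) of the 15 highest and 15 lowest genes in the control library (grey) and treated library 1 (red), ranked by the interval bound nearest to 1. Open circles are genes with 0 counts in treated library 1, drawn at 3 counts (0.752 CPM). RRAD lies at 243 and 3656 CPM and USP13 lies at 181 and 2.76 CPM.

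The ratio of a gene depended on which part of its transcript a unigene covered. For 253 genes, the assembly holds both a unigene in which the coding frame ends in a stop codon, that is the 3′ end of the coding sequence, and another whose frame runs open off the 3′ edge and so lies further upstream. The median log2 ratio was -0.04 over the unigenes with the stop codon and -2.71 over the upstream ones. The difference within a gene had a median of 2.80 on the log2 scale (SD 1.39, n = 253 genes), or 6.96-fold, and was above 0 in 241 of the 253 genes (95.3%). MSH3, a mismatch repair gene, showed the largest difference, with 22 and 61 counts at the stop codon and 58 and 1 upstream. MED1, a Mediator subunit, went the other way, with 56 and 8 counts at the stop codon and 155 and 117 upstream. For treated library 3 against the same control library, the median difference was 1.58 and 236 genes were above 0. Upstream sequence was therefore under-represented in treated library 1 relative to the control library, and the cause was not tested. Ratios also declined with length. Among genes whose longest unigene had up to 1348 bases, 18.7% were higher and 14.2% lower (median log2 ratio 0.17), whereas from 3426 bases upwards 5.41% were higher and 37.1% lower (median -0.71). Of 5 equal groups by GC content, the lowest had a median of -0.03 and the others lay between -0.54 and -0.35. Values with only the stop-codon unigenes, or centred on genes of similar length, are therefore given below for some of the lists. For comparison, over all genes 15.2% were higher and 15.7% lower when centred by length, and 10.5% and 24.8% on stop-codon unigenes. Centring sets the median of each length group to 0, so it also takes out the median of all genes. A list can therefore move by centring without any link to length. All 15 of the highest genes and 13 of the 15 lowest have a stop-codon unigene, on which their log2 ratios lay between 3.68 and 8.44 and between -6.20 and -4.22.

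**Figure D3:**
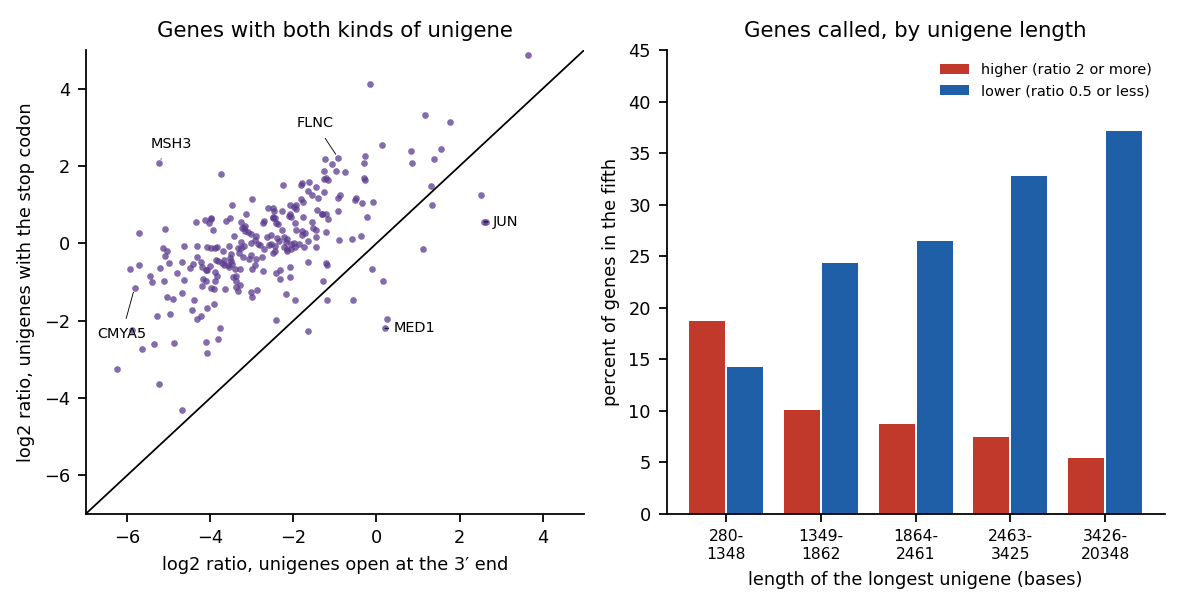
Left, log2 ratio of treated library 1 to the control library for 253 genes, on unigenes with the stop codon (y axis) and on unigenes open at the 3′ end (x axis). The line marks equal values, and 241 genes lie above it. Right, percent of genes called higher (red) or lower (blue) in 5 equal groups by unigene length in bases. The share of lower genes goes from 14.2% in the shortest group to 37.1% in the longest.

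Genes that cAMP and other acute signals induce were higher in treated library 1 as a group. Of 27 named in the table, 25 had 50 or more counts, and 20 of them were higher and 1 lower (median log2 ratio 1.85), against 10.1% and 27.0% of all genes (median -0.39). CREM, the cAMP-responsive modulator and one of the genes that the study selected, had 237 and 1843 counts (38.9 and 462 CPM, ratio 11.9, 10.4 to 13.6). The orphan receptor NR4A1 had 284 and 674 counts (ratio 3.62), the salt-inducible kinase SIK1 154 and 516 (5.11), and the phosphatase gene DUSP1 504 and 1583 (4.79). JUN, an AP-1 subunit, had 2087 and 3547 counts (2.59), and FOS 823 and 1083 (2.01). The RNA-decay factor ZFP36 had 293 and 1114 counts (5.80). The coactivator gene PPARGC1A had 46 and 16 counts (0.53), and the lower gene was the phosphodiesterase gene PDE4B with 990 and 120 (ratio 0.18). Most PDE4B counts sit on a unigene of 68% protein identity (892 and 51 counts), while the unigene with the stop codon had 69 and 66 (ratio 1.46, 1.02 to 2.07). On stop-codon unigenes 18 of 24 genes were higher and 0 lower. CREM had 120 counts in treated library 3, a ratio of 1.14.

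The receptor and kinase arm of the same pathway held more lower than higher genes. Of 26 genes for receptors, G proteins, adenylyl cyclases, protein kinase A, its anchors and phosphodiesterases, 4 were higher and 11 lower (median -0.69). These are 15.4% and 42.3%, against 10.1% and 27.0% of all genes. The higher ones included PDE7A (2.76) and CREM, which this list shares with the one above. PDE4D, a cAMP phosphodiesterase, had 633 and 1816 counts (4.38, 3.99 to 4.80), on a unigene with the stop codon, c13736_g4. The unigene of 68% identity counted as PDE4B, c13736_g3 (892 and 51 counts), carries the same assembly number. Whether it belongs to PDE4D was not tested. PDE4C, another selected gene, had 1707 and 1641 counts (1.47). PRKACA, the catalytic subunit of protein kinase A, had 745 and 100 counts (0.20, 0.16 to 0.25), and the regulatory subunits PRKAR1A and PRKAR2A were at ratios of 0.69 and 0.36. The adenylyl cyclase genes ADCY2, ADCY6 and ADCY9 were at 0.51, 0.23 and 0.12. The median length of the longest unigene in this group was 3260 bases. With the median ratio of all genes set to 1, 4 were higher and 9 lower (median -0.30, all genes 16.6% and 16.8%). Centred on genes of similar length, 6 were higher and 8 lower (median 0.02, all genes 15.2% and 15.7%).

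**Figure D4:**
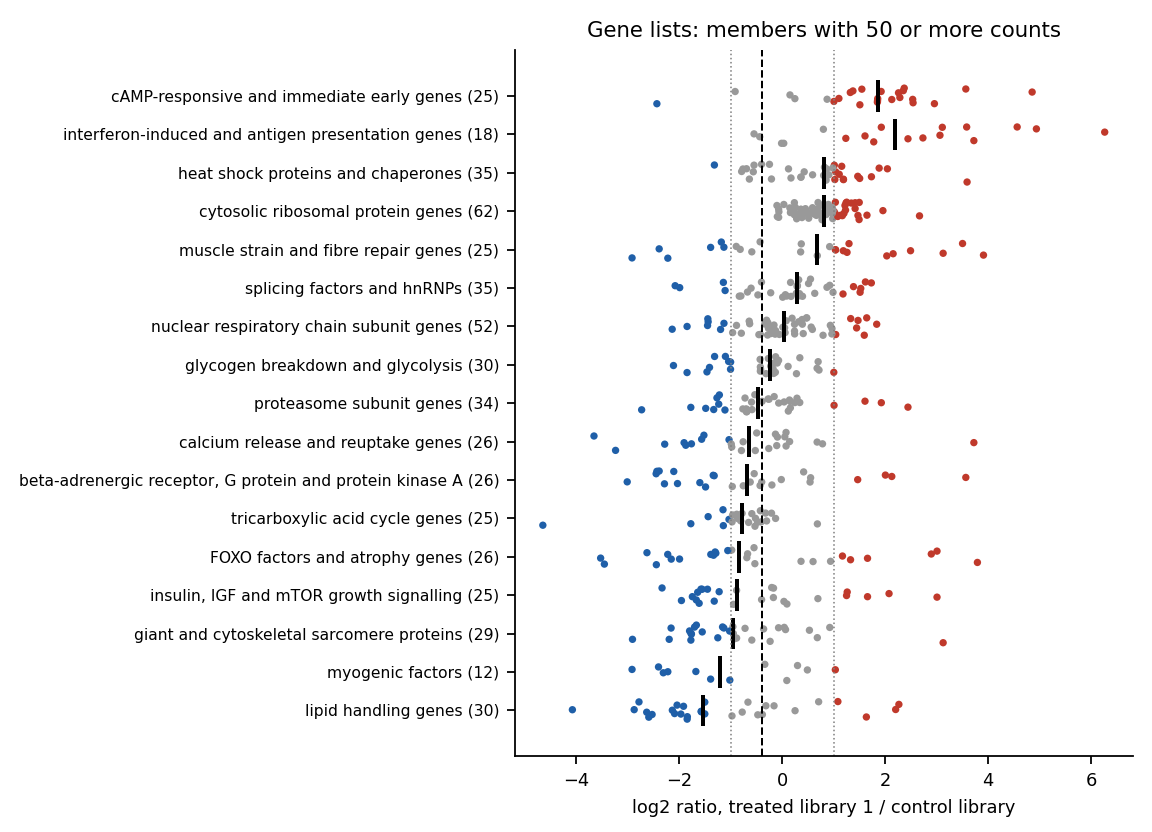
Each point is a gene of a list with 50 or more counts, whose number stands in parentheses, at its log2 ratio of treated library 1 to the control library (x axis). Red points are higher and blue points lower by 2-fold or more, black bars are list medians, and the dashed line is the median of all genes (-0.39). cAMP-responsive genes have a median of 1.85 and lipid handling genes one of -1.54.

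Heat shock proteins and chaperones, which refold damaged proteins, were higher for 13 of 35 genes and lower for 1 (median 0.82), or 37.1% and 2.86% against 10.1% and 27.0% of all genes. The split followed the scaling, with 19 higher and 0 lower under TMM or when centred by length, and 4 higher and 7 lower when scaled to all expected counts (all genes 4.81% and 45.2%). CRYAB, the small heat shock protein alphaB-crystallin, had 37765 counts in the control library and 91390 in treated library 1 (ratio 3.69, 3.65 to 3.73). Its deposited TPM, a level per length not rescaled to the paired genes, went from 7277 to 18067. By TPM it went from rank 14 to rank 5 of all genes. DNAJB4 had 321 and 2539 counts (12.1), BAG2 364 and 794 (3.33) and HSPB8 10979 and 16413 (2.28). Nearer to 1 were HSPA8 at 1.34, HSP90AA1 at 1.09, HSP90AB1 at 0.68 and the mitochondrial HSPA9 at 0.58. DNAJB2 was the lower one, with 346 and 91 counts (0.40). CRYAB had 5072 counts in treated library 3 (1880 CPM, against 6205 CPM in the control library).

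Of 25 genes for muscle strain and fibre repair, 11 were higher and 6 lower (median 0.68). These are 44% and 24%, against 10.1% and 27.0% of all genes, so the lower share was near that of all genes. XIRP1, an actin-binding protein found at sites of muscle injury and at the myotendinous junction, had 8844 and 50671 counts. These are 1453 and 12696 CPM, a ratio of 8.74 (8.54 to 8.94). Its main unigene, of 5907 bases, holds the stop codon and was at 8.77. An upstream XIRP1 unigene had 61 and 137 counts (3.42). ABRA, an activator of SRF signalling, had 315 and 2344 counts (11.3), and ANKRD1, a titin-binding repeat protein, 8655 and 25281 (4.45). The annexin gene ANXA2 had 173 and 639 counts (5.63). SRF itself, the serum response factor, had 830 and 72 counts (0.13), and HBEGF 184 and 23 (0.19). FLNC, filamin C, had 55471 and 58356 counts in all (1.60). These counts came from an upstream unigene of 7545 bases with 40922 and 14153 counts (ratio 0.53) and a unigene with the stop codon with 14499 and 43952 (ratio 4.62). In treated library 3 XIRP1 had 356 counts on its main unigene, against 50534 in treated library 1.

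Genes induced by interferon or used in antigen presentation were higher for 13 of 18 genes and lower for 0 (median 2.18). This list was written after ISG15, GBP2 and IDO1 had been seen among the highest genes, so its count is a description only. ISG15, a ubiquitin-like protein, had 2 and 101 counts (ratio 77.0, 20.8 to 645). GBP2, a guanylate-binding protein, had 16 and 322 (30.7), and IDO1, which breaks down tryptophan, 17 and 264 (23.7). The factor IRF1 had 15 and 118 counts (12), MX1 6 and 52 (13.2) and CD74, the invariant chain of MHC class II, 98 and 538 (8.37). The immunoproteasome genes PSMB8, PSMB9 and PSMB10 were at ratios of 3.8, 3.05 and 5.44. Of all 34 proteasome genes 4 were higher and 8 lower (median -0.46), or 11.8% and 23.5%, near the 10.1% and 27.0% of all genes. STAT2, PSME1, TAP1, TAPBP and SAMHD1 lay between the limits, at 0.74, 1.02, 1.74, 0.99 and 0.68. A further 23 genes of the list had fewer than 50 counts. Among them was the chemokine gene CXCL9 with 0 and 23 counts, or 11.7-fold higher with 3 counts put in place of 0. In treated library 3 ISG15 was at a ratio of 13.5, GBP2 at 3.10 and IDO1 at 1.33, on 12, 22 and 10 counts. Myeloid markers, as given above, were also higher in treated library 1 (4.11 and 15.8 CPM), and their part in these values was not tested. The immunoglobulin genes LOC102176353 and LOC102185492 had 2 and 144, and 7 and 193 counts. For the latter, which the study selected, the main unigene matches the named protein at 33% identity, so this name is uncertain.

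Fibre type genes had to be read by unigene, because a protein match can carry the wrong isoform's name. Over 5962 genes for which both the table and the best nucleotide match give a symbol, the symbols were the same for 92.6%. The name TNNC1, slow troponin C, covers 2 unigenes that match slow troponin C and a more abundant one, c8045_g1, whose best nucleotide match is fast troponin C (TNNC2). The unigene counted as MYH4 matches a slow myosin heavy chain, and the one counted as ACTA2 matches skeletal actin, ACTA1. The lines give 90 bases of coding sequence of both troponin C unigenes, with capitals at the 19 positions at which they differ, and are shown because the fast and slow forms had different ratios.
fast troponin C unigene c8045_g1: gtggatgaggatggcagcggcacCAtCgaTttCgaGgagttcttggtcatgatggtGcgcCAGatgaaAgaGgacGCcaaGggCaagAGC
slow troponin C unigene c7498_g2: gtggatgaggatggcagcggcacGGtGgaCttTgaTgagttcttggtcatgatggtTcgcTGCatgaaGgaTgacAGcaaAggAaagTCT
Over 295 aligned bases they were 73.9% identical. The fast troponin C unigene had 57179 counts in the control library and 104055 in treated library 1 (9395 and 26072 CPM, ratio 2.78, 2.75 to 2.80), and the slow one 14117 and 15695 (2319 and 3933 CPM, ratio 1.70, 1.66 to 1.73). The other slow troponin C unigene, which runs open at the 3′ end, had 8473 and 2226 counts (0.40), and both together were at 1.21.

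By the names of the table, 4 of 12 fast fibre genes were higher and 2 lower (median -0.16), and 3 of 14 slow fibre genes were higher and 5 lower (median -0.19). Scaled to all expected counts, 1 of the 12 fast genes was higher and 4 lower (all genes 4.81% and 45.2%). The slow genes were then 1 higher and 5 lower. By nucleotide match, 5 fast troponin and light chain unigenes that hold the stop codon were higher in treated library 1. MYL1, the fast essential light chain, had 17564 and 36346 counts (ratio 3.16, 3.10 to 3.21). The fast troponin T (TNNT3) unigene was at 2.70, the fast regulatory light chain MYLPF at 2.28 and fast troponin I (TNNI2) at 2.27. The fast calcium pump ATP2A1 was at 0.70. Slow genes went both ways. MYL2, the slow regulatory light chain, had 50534 and 8799 counts (8303 and 2205 CPM, 3.77-fold lower), and MYL3 was 34-fold lower, as given above. Both unigenes are short (788 and 927 bases) and hold the stop codon. Slow troponin T (TNNT1) had 38185 and 27870 counts (1.11), and the slow calcium pump ATP2A2 was at 0.58 on its stop-codon unigene and at 0.04 and 0.03 on the others. For treated library 3, over the same control library, MYL1 was at a ratio of 3.42, TNNT3 at 3.14, TNNI2 at 2.76, TNNC2 at 2.29, MYLPF at 2.16, TNNT1 at 0.89, MYL2 at 0.22 and MYL3 at 0.07.

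Slow myosin heavy chain, the motor of slow fibres, lay in 8 unigenes that all match the same sheep transcript. Their ratios ran from 0.014 to 2.10. Of these, 4 aligned to the coding frame of a non-muscle myosin heavy chain unigene of 1387 residues, at residues 2 to 115, 265 to 561, 652 to 777 and 772 to 1335, and their ratios in this order were 0.040, 0.110, 0.209 and 2.10. The last one, c13776_g1, holds the stop codon and had 140550 counts in the control library and 193165 in treated library 1, while the first, c8673_g4, had 6214 and 162. The first 60 bases of the frame of c8673_g4 and the last 60 of c13776_g1 are printed below, with the stop codon in capitals. They stand for the first and last of the 4 aligned unigenes only. The others were not placed, among them the lowest, c11158_g1 and c11158_g2, at 0.014 and 0.020. Whether c8673_g4 holds the start of the protein was not tested.
upstream, c8673_g4: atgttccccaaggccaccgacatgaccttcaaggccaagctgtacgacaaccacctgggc
downstream, c13776_g1: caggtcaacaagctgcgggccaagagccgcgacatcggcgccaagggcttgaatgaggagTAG
Summed over the 8 unigenes, slow myosin heavy chain had 214041 and 197354 counts, a ratio of 1.41. The direction of this gene thus depended on the part of the transcript that was counted. The fast 2a myosin unigenes (MYH2), none of which holds a stop codon, were at 0.36, 0.09 and 0.04.

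**Figure D5:**
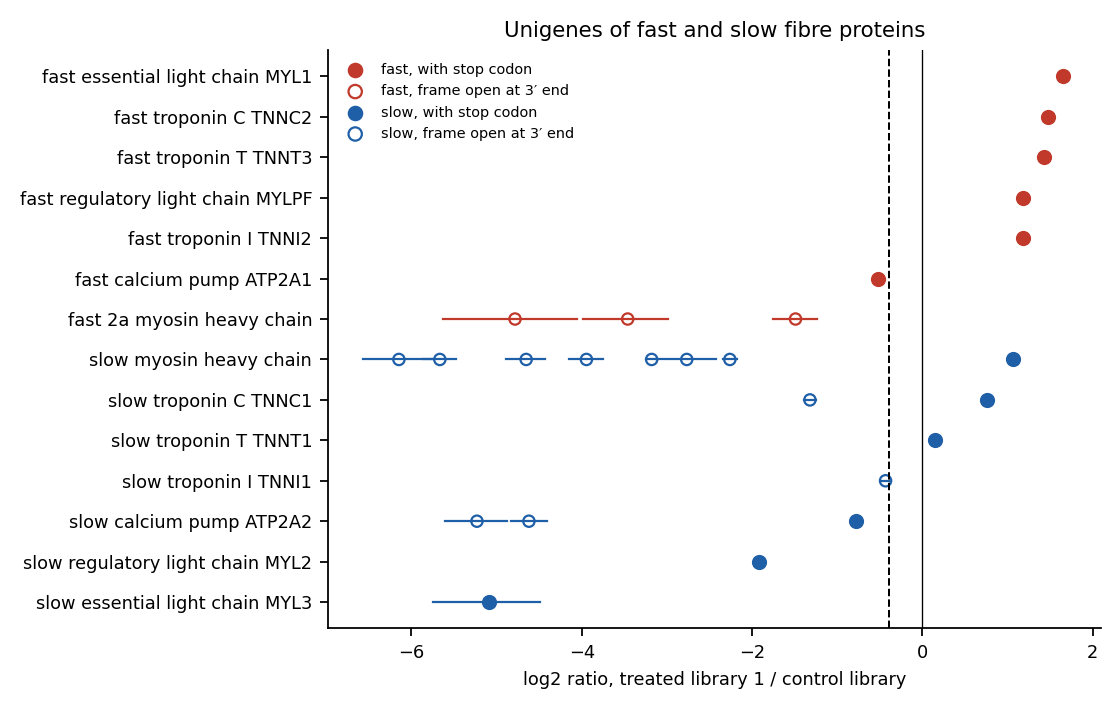
Each circle is a unigene with a coding frame and 500 or more counts, at its log2 ratio of treated library 1 to the control library (x axis) with its 95% counting interval. Filled circles hold the stop codon of the coding frame and open circles run off the 3′ edge. Red marks fast and blue slow fibre proteins, and the dashed line is the median of all genes (-0.39). MYL1 lies at a ratio of 3.16, MYL3 at 0.03, and slow myosin heavy chain spreads from 0.014 to 2.10.

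Giant and cytoskeletal sarcomere genes were lower for 14 of 29 and higher for 1, which was XIRP1 (median -0.96). NEB, nebulin, the ruler of the thin filament and a selected gene, had 44656 and 9970 counts (7337 and 2498 CPM, 2.94-fold lower, ratio 0.333 to 0.348). RYR1, the calcium release channel, had 55187 and 10653 (ratio 0.29), XIRP2 33422 and 6292 (0.29) and MACF1 1845 and 161 (0.13). The median length of the longest unigene was 7545 bases, against 2139 over all genes. On stop-codon unigenes 11 of 28 were lower and 4 higher. With the median ratio of all genes set to 1, 10 of 29 were lower and 3 higher (median -0.57). Centred on genes of similar length, 7 of 29 were lower and 4 higher (median -0.25). MACF1 changed sides on its stop-codon unigenes, with a log2 ratio of 0.66.

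Atrophy genes, which FOXO factors switch on in wasting muscle, went both ways. Of 26, 6 were higher and 12 lower (median -0.83). With the median ratio of all genes set to 1, 7 were higher and 7 lower (median -0.45), and centred by length 8 and 8 (median -0.24). TRIM63, the ubiquitin ligase MuRF1, had 1357 and 6629 counts (223 and 1661 CPM, ratio 7.45, 7.03 to 7.90), whereas FBXO32, the ligase atrogin-1, had 1537 and 163 (253 and 40.8 CPM, 0.16, 0.14 to 0.19). FOXO1, a selected gene, had 251 and 15 counts (11-fold lower, ratio 0.050 to 0.153), and FOXO3 663 and 93 (0.21). MSTN, myostatin, a brake on muscle growth, had 29 and 153 counts (8.05, 5.38 to 12.4), and DDIT4, an inhibitor of mTOR, 580 and 1200 (3.16). PDK4, which holds back pyruvate dehydrogenase, had 11892 and 1749 counts (0.22). Of 25 insulin, IGF and mTOR genes, 5 were higher and 11 lower (median -0.89), with the receptor gene INSR at 0.30 and MTOR at 0.33. The counts for this list were 6 and 9 with the median ratio set to 1 (median -0.50), and 6 and 4 when centred by length (median -0.23). Myogenic factors were lower for 7 of 12 and higher for 1 (median -1.2). The higher one was MYF6 with 1556 and 2087 counts (2.05), while myogenin (MYOG) had 178 and 25 (0.21).

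Lipid handling genes were lower for 17 of 30 and higher for 4 (median -1.54), the lowest median of all pathway lists, and on stop-codon unigenes 17 of 29 were lower. The lower ones included fatty acid oxidation genes. CPT1B, which carries fatty acids into mitochondria, had 1408 and 224 counts (0.24), HADHA 7844 and 829 (0.16) and the uncoupling protein UCP3 2274 and 203 (0.14). HSL, the hormone-sensitive lipase and a selected gene, had 67 and 10 counts (4.39-fold lower, ratio 0.104 to 0.445). The higher ones were FABP5, a fatty acid-binding protein and selected gene, with 562 and 1774 counts (4.81, 4.38 to 5.30), LPL with 223 and 674 (4.61), PLIN2 and DGAT2. FABP5, LPL and PLIN2 are also found in fat and capillary cells, and the adipocyte marker ADIPOQ was higher as given above. In contrast, the adipocyte perilipin PLIN4 had 930 and 215 counts (0.35).

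Glycolysis and glycogen genes were lower for 9 of 30 (30%, against 27.0% of all genes) and higher for 1 (median -0.25). Centred by length 2 were lower and 3 higher (median 0.06), and with the median ratio set to 1 there were 4 of each. GAPDH had 111313 and 66565 counts (0.91, 0.90 to 0.92), PYGM, the muscle glycogen phosphorylase, was at 0.46 and HK2 at 2.00. Tricarboxylic acid cycle genes were lower for 6 of 25 (24%, near the 27.0% of all genes) and higher for 0 (median -0.78), on stop-codon unigenes lower for 8 of 24, and PDHA1 was the lowest of them. Nuclear genes of the respiratory chain were higher for 7 of 52 and lower for 7 (median 0.03). These are 13.5% each, against 10.1% and 27.0% of all genes, so the lower share was below that of all genes. With the median ratio set to 1, 11 were higher and 5 lower (all genes 16.6% and 16.8%). Centred by length, 6 were higher and 5 lower (median -0.10, all genes 15.2% and 15.7%). By the paired-gene scaling, the higher ones were small subunits such as ATP5J2 at 3.57 and NDUFS5 at 3.02. The lower ones included larger subunits such as ATP5B (10976 and 1998 counts, 0.28), UQCRC2 (0.37) and SDHA (0.37). Calcium handling genes were lower for 9 of 26 (34.6%, against 27.0% of all genes) and higher for 1, RCAN1 (median -0.64). PPP3CB, a catalytic subunit of calcineurin, the enzyme that RCAN1 inhibits, had 698 and 94 counts (0.21).

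Genes of the cytosolic ribosome were higher or near 1. Of 62 cytosolic ribosomal protein genes 20 were higher and 0 lower (median 0.82), from RPL15 at 0.93 to RPL22 at 6.36 (662 and 2759 counts). Their median unigene length was 769 bases, and the count of higher genes followed the scaling. It was 40 with the median ratio of all genes set to 1 (where 16.6% of all genes were higher), 22 when centred by length and 3 when scaled to all expected counts, with 0 lower each time. Of 68 mitochondrial ribosomal protein genes 4 were higher and 5 lower (median 0.11). Of 41 translation initiation factor genes 3 were higher and 9 lower (median -0.45), and centred by length 4 and 3. Splicing factors were higher for 6 of 35 and lower for 4 (median 0.29), led by the kinase CLK4 at 3.32 and SRSF6 at 2.85. Zinc finger ZNF genes were lower for 27 of 83 (32.5%) and higher for 2 (median -0.59), and solute carriers lower for 23 of 77 (29.9%) and higher for 7 (median -0.65), both near the 27.0% of all genes that were lower. Centred by length, 25 ZNF genes were lower and 10 higher, and 14 solute carriers lower and 10 higher. Ubiquitin ligases and proteases were lower for 13 of 40 (32.5%) and higher for 3 (median -0.54), and centred by length for 7 and 4. The higher ones were led by KLHL40, which stabilises thin filament proteins, with 4554 and 14300 counts (4.79), and ASB5 with 2874 and 8333 (4.42).

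The most abundant genes per length were mostly contractile and energy genes, ranked by TPM (a level corrected for length, summed over a gene's unigenes). TPM was used as deposited and not rescaled to the paired genes, so its changes are not on the scale of the ratios above. The name TNNC1 was first in both, at 45546 and 41523 TPM. CKM, muscle creatine kinase, went from 32350 to 15776 TPM, aldolase A (ALDOA) from 24648 to 12574, and the ACTA1-matching unigene counted as ACTA2 from 26918 to 11611. The myosin unigenes counted as MYH4 and LOC102181869 went opposite ways, from 19918 to 35468 and from 25443 to 1797 TPM, and both match slow myosin heavy chain. By the paired-gene ratios used above, TNNC1 was at 2.33, CKM at 0.71, ALDOA at 0.75 and ACTA2 at 0.63. MYH4 was at 2.10 and LOC102181869 at 0.09. MYL2 went from rank 10 to rank 26. Of the 9 genes that the study selected or used as a reference, CREM, FABP5 and LOC102185492 were higher in treated library 1, FOXO1, HSL and NEB lower, and PDE4C, MYH9 (1140 and 406 counts, 0.54) and GAPDH between the limits. The study itself reported HSL and MYH9 as lower and its other selected genes, NEB, FOXO1 and PDE4C among them, as higher. It did so for each sequenced day, by sequencing and by PCR. The reason for the opposite direction of NEB and FOXO1 here was not tested.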

How the data were processed

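Total RNA of longissimus muscle was sequenced in 1 control library and 3 treated libraries. Per the labels, FastQC 0.10.1 checked the reads. A de novo assembly was made by the authors, and for every unigene an expected count, a TPM and an FPKM were deposited per library (FPKM was not used for any value here), together with unigene lengths, database matches, and a table that pairs unigenes with goat genes at a percent identity of the protein match, which the authors set up. The assembler and the counting tool are not given in the sources used here. Isoform tables and FPKM intervals were not used.

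Deposited expected counts, all whole numbers, of 21195 paired unigenes were summed by gene name, and each library was scaled to its sum. Genes with 50 or more counts in both libraries together were kept. A ratio of 2 or more was called higher and 0.5 or less lower, with no test, since each side has 1 library. A gene at 0 was set against 3 counts. Intervals are Clopper-Pearson 95% intervals and cover counting error only, since reads carry no molecular identifiers. The ratio step was tested on simulated counts. Python 3.11.15, pandas 2.3.3, scipy 1.17.1, Biopython 1.88 (alignment of unigenes) and edgeR 4.0.16 (TMM factors only) were used.

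The gene lists and the genes described were chosen with earlier results of these data known. Genes were named by rule (the 15 highest and 15 lowest by the interval bound nearest to 1, the 10 of highest TPM in each library, in each list the extremes and members with over 1000 counts, and the genes selected in the study). Other genes, the interferon list, the stop-codon comparison and centring by length were chosen after their values were seen. Alternatives changed the scaling, count minimum, limits, identity minimum and the way unigenes were joined. Some genes are not reported here.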

Additional observations from a re-analysis of the deposited data

How the results depend on the processing

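No paired analysis was possible because each side has 1 library. Of 690 genes higher in treated library 1 and 1845 genes lower in treated library 1, the counts were 1134 and 1151 with the median ratio set to 1, 1125 and 1161 with TMM, 1042 and 1072 when centred on genes of similar length, and 329 and 3092 when scaled to all expected counts. They were 383 and 956 with a minimum of 200 counts, 1723 and 3089 with no minimum, 292 and 901 at 3-fold both ways, and 400 and 1025 when the whole interval had to pass 2-fold. With the limits above 3 or below 0.6, 292 were higher. The other 19 of 36 alternative counts stayed within 1.5 times. Of 121 named genes past 2-fold, all kept their direction under each scaling tried. PDE4B changed sign at an identity of 80% or more (log2 ratio 0.15) and on stop-codon unigenes only (0.50), and MACF1 on stop-codon unigenes only (0.66), where it is then counted on the 3′ end alone. The β-adrenergic and protein kinase A list went from a median of -0.69 to 0.02, and the clock list from -0.42 to 0.27, when centred by length. With only the median ratio of all genes set to 1, these medians were already -0.30 and -0.04. Centring also moved the laminin and integrin list from -0.03 to 0.68. The endothelial and smooth muscle list went from -0.10 to 0.62 and the collagen list from 0.15 to 0.79. With only the median ratio set to 1, these 3 lists were at 0.35, 0.29 and 0.53. Genes with few counts carry wide intervals, and between-animal spread could not be measured with 1 library a side.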

Other observations

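Circadian clock genes, among them the PER and CRY repressors, were higher for 4 of 13 and lower for 3 (median -0.42). These are 30.8% and 23.1%, against 10.1% and 27.0% of all genes. PER2 had 28 counts in the control library and 107 in treated library 1 (ratio 5.83), PER1 258 and 611 (3.61), CRY1 was at 2.69 and NFIL3 at 2.50. The lower genes were CRY2 at 0.28 and the nuclear receptor genes NR1D1 at 0.32 and NR1D2 at 0.23. The hour at which each muscle was taken is not given in the sources used here.

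Inflammation and acute response genes had 50 or more counts for 8 of 17 named, of which 5 were higher and 0 lower (median 1.30). THBS1, a matrix glycoprotein, had 63 and 393 counts (9.51), and TNFRSF12A, the TWEAK receptor of injured muscle, 345 and 1730 (7.65). Fibroblast markers were higher for 2 of 10 and lower for 0 (322 and 403 CPM in all), endothelial and smooth muscle markers higher for 4 of 14 and lower for 1 (VWF, 1087 and 216 counts), and satellite cell markers higher for 0 of 2 and lower for 1. Collagen genes were higher for 1 of 10, laminin and integrin genes higher for 3 and lower for 3 of 15, RAB GTPase genes lower for 3 of 24, and amino acid and oxidative stress genes higher for 1 and lower for 3 of 14. For comparison, 10.1% of all genes were higher and 27.0% lower. The share of higher collagen genes (10%) and both shares of the amino acid and oxidative stress genes (7.14% and 21.4%) lay near these.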
